A study of Homo sapiens with 3 samples.

Results

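The 10 genes described here encode enzymes that make purine nucleotides anew (PPAT, GART, PFAS, PAICS, ADSL and ATIC) or recover and interconvert purine bases and nucleosides (HPRT1, APRT, ADA and ADK). They were chosen by name, and every probe carrying exactly 1 of these symbols and a value on at least 1 array was taken. This gave 13 probes of the 31615 on the arrays, 9 for the 6 de novo enzymes and 4 for the 4 salvage enzymes. Values on all 3 arrays existed for 11 of the 13 probes and for 9 of the 10 genes, out of 9394 genes measured so completely. ADSL had values on 2 arrays.

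BEAS-2B, an immortalised line of human bronchial epithelium, received MTX or the vehicle DMSO. The dose of MTX was 0.144 µM, stated as its IC20 (20% inhibition), and it lasted 48 h, starting 24 h after seeding. MTX is written as the labels write it. Each of the 3 arrays paired Cy5-labelled RNA of MTX-treated cells with Cy3-labelled RNA of DMSO-treated cells, with no dye exchange, so a dye effect of a gene is part of its value. A positive log ratio is read as higher with MTX, which is likely from the labelled dyes but not settled. Since no source names the base of the log ratio, each fold is given both for base 10 and for base 2. The labels do not say whether the arrays came from separate cultures, and p-values therefore measure the spread between arrays, which may be technical. Arrays 1, 2 and 3 gave values for 21224, 25272 and 25927 probes. Ratios hold no levels, so cell identity was not checked by marker level. Values on all 3 arrays existed for 5 of 7 epithelial, 1 of 5 fibroblast and 1 of 4 leukocyte markers. Of these, 2 epithelial markers and 0 of the others had a limma adjusted p under 0.05, against 29.0% of all genes. So few markers allow no contrast between cell types.

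Purine nucleotides are built stepwise on a phosphoribosyl scaffold donated by PRPP until the ring of IMP is closed, and IMP is then turned into AMP or GMP. Carbons of the ring are delivered by formyl-tetrahydrofolate at a step of GART and a step of ATIC. Salvage instead attaches a ready-made base to PRPP, or phosphorylates a nucleoside, and so costs the cell less energy. The comparison asked how the genes of the building route and of the recovery route differed between MTX-treated and DMSO-treated cells.

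With MTX most of the completely measured de novo genes fell and a pair of salvage genes rose, by small amounts. These directions, and every order of the members given here, hold for Cy5 over Cy3. With the ratio turned, the 4 de novo calls would be higher, the 2 salvage calls lower, ATIC the highest member and HPRT1 the lowest. Of the 5 de novo genes on all 3 arrays, 4 fell (GART, PFAS, PAICS and ATIC), 0 rose and PPAT did not pass the test. Of the 4 salvage genes, 2 rose (HPRT1 and ADA), 0 fell, and APRT and ADK did not pass. Called genes are those with a limma adjusted p under 0.05 over all 9394 genes. The background was broad, with 12.4% of all genes called lower, 16.6% called higher and 29.0% called in either direction. The median of the gene means was -0.0912 for the de novo genes and 0.0713 for the salvage genes, against 0.00742 for all genes. Values had 1 sign on all 3 arrays for 8 of the 9 complete members, the exception being PPAT, against 63.6% of all genes. The calls depended on the arrays and probes used. Without array 1 or without array 2 limma called 0 of 9394 genes. At an unadjusted limma p under 0.05 were 3 de novo and 2 salvage genes each time. Over all 9394 genes 2938 were so without array 1 and 2387 without array 2. Without array 3 the counts of called genes were again 4 and 2, in a fit that called 45.6% of all genes. In a fit that also admitted probes valued on 2 arrays, 13.9% of 11741 genes were called. Among them were 0 de novo genes and 1 salvage gene, HPRT1. At an unadjusted limma p under 0.05 were 4 de novo and 3 salvage genes, against 4336 of the 11741 genes. The means of the complete genes were the same in that fit.

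**Figure D1:**
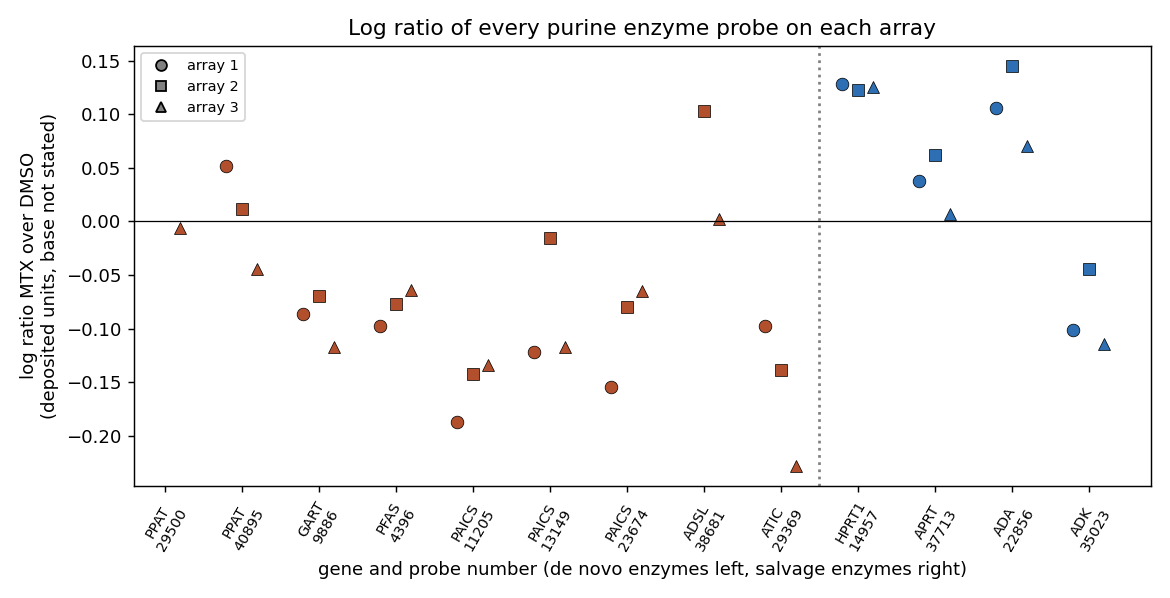
Log ratio of MTX over DMSO (vertical axis, deposited units, base not stated) of each of the 13 probes, named by gene and probe number, with 1 marker per array. The probes of GART, PFAS, PAICS and ATIC lie below 0 on every array, and those of HPRT1, APRT and ADA above 0, while ADK lies below 0, PPAT probe 40895 lies on both sides of it and both ADSL readings lie above it.

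PPAT, the amidotransferase of the first committed step, showed no constant direction. Its probe 40895 read 0.0514, 0.0119 and -0.0445 on arrays 1, 2 and 3, so that array 3 was of the opposite sign. The mean was 0.00627 ± 0.0482 (SD, n = 3), with a 95% interval of -0.0630 to 0.0756 and a limma adjusted p of 0.870. Without array 1 the mean changed sign, to -0.0163. Its other probe, 29500, read -0.00644 on array 3 alone. GART, which carries several early steps in a single polypeptide, a formyl transfer among them, read -0.0866, -0.0700 and -0.117. All 3 values lay below 0 and the mean fell to -0.0912 ± 0.0238 (n = 3, limma adjusted p = 0.0376), or 1.23-fold lower with base 10 and 1.07-fold with base 2. After the mean of the neighbouring probes in number order was removed, GART averaged -0.0720 and lost its call (adjusted p = 0.155). PFAS, which turns the formylated glycinamide ribotide into its amidine with nitrogen from glutamine, read -0.0977, -0.0770 and -0.0640. Its values were close to each other, and the mean of -0.0796 ± 0.0170 (n = 3) passed narrowly with an adjusted p of 0.0461 in limma, or 1.20-fold lower with base 10 and 1.06-fold with base 2. In the fit over single probes, where 30.5% of 17569 probes were called, the same values had an adjusted p of 0.0535.

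PAICS, the enzyme of a later carboxylation and of the addition of aspartate, was measured by 3 probes. Probe 11205 read -0.187, -0.142 and -0.134 on arrays 1, 2 and 3, probe 23674 read -0.154, -0.0802 and -0.0652, and probe 13149 read -0.122, -0.0154 and -0.118. All 9 readings lay below 0, and probe 11205 was the lowest of the 3 on every array. Probes 11205 and 23674 are annotated to the same transcript. The gene mean was -0.113 ± 0.0382 (SD over arrays, n = 3, limma adjusted p = 0.0306), or 1.30-fold lower with base 10 and 1.08-fold with base 2. Taken alone in the fit over single probes, probe 11205 passed (mean -0.154, adjusted p = 0.0144), whereas probes 23674 (-0.0999, adjusted p = 0.0523) and 13149 (-0.0849, adjusted p = 0.0970) did not. ADSL, the lyase that removes fumarate both in this pathway and on the way to AMP, had no value on array 1. Its probe read 0.103 on array 2 and 0.00246 on array 3, both above 0 but far apart. In the fit that admits genes measured on 2 arrays it averaged 0.0528, with a 95% interval of -0.0654 to 0.171 and a limma adjusted p of 0.409. ADSL was thus the de novo member with the highest mean, on the fewest values.

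PPAT and PAICS are divergent neighbours, and the promoter of PPAT is shown because it is also that of PAICS. In the RefSeq promoter table (GRCh38.p14) the PPAT window, chr4:56435566-56435865 on the minus strand, runs from 250 bases before to 50 after the start of the gene. Of 3 PAICS starts listed on the plus strand, 1 lies 137 bases from that of PPAT, and its window shares 236 bases with it. Capitals in the sequence mark CACGTG, the E-box core, and GGGCGG or its complement CCGCCC, the GC box.
PPAT: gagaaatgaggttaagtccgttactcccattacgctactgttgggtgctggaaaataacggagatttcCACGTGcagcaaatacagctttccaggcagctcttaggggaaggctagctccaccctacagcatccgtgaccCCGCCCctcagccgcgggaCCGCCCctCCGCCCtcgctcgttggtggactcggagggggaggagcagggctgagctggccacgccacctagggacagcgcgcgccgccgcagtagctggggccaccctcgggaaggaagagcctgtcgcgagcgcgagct
The single CACGTG begins at base -182 of PPAT and at base 41 of PAICS, and it is the same 6 bases, chr4:56435792-56435797. On the arrays the genes that share this stretch read differently. PAICS was lower than PPAT by -0.206, -0.0912 and -0.0610 on arrays 1, 2 and 3, a mean difference of -0.119 ± 0.0764 (SD, n = 3). The sign was the same on each array. An exact sign-flip test on 3 arrays cannot give a two-sided p below 0.25, and none was run.

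ATIC, which adds the last ring carbon from formyl-tetrahydrofolate and closes the ring to IMP, had the lowest mean of the members in the direction taken. It read -0.0972, -0.138 and -0.228 on arrays 1, 2 and 3, all below 0, with array 3 more than 1.5 times as far from 0 as either other array. The mean fell to -0.154 ± 0.0669 (n = 3, limma adjusted p = 0.0281), or 1.43-fold lower with base 10 and 1.11-fold with base 2. It stood at percentile 5.29 of all gene means. Without array 3 the mean was -0.118 and the limma adjusted p 0.0155, in a fit that called 45.6% of all genes. Without array 1 (-0.183, adjusted p = 0.0979) or array 2 (-0.163, adjusted p = 0.132) ATIC lost its call, as did every gene. The promoter of ATIC, chr2:215311809-215312108 on the plus strand (RefSeq, GRCh38.p14), is shown because it holds the E-box core 2 times, at bases -46 and 30 from the start, capitals marking the same letters as before.
ATIC: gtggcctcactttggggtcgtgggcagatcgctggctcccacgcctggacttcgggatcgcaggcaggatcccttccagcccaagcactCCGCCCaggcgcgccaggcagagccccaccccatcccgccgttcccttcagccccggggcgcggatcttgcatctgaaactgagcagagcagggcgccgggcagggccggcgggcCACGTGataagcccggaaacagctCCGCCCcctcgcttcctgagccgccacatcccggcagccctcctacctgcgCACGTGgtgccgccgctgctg
Promoters were found for 9 of the 10 members, in 14 windows because some genes have several starts. CACGTG, read on both strands, was found in 3 of the 14 windows, those of PPAT, of the shared PAICS start and of ATIC. None of the windows of the other matched members held it. The PPAT and PAICS matches are the same 6 bases, so that site is counted in both windows. CACGTG was present in 7.26% of the 35116 promoter windows in the table. GGGCGG on either strand was found in 11 of the 14 member windows and in 45% of all windows. TATAAA on either strand was found in 1 member window, of GART, and in 11.5% of all windows. No base belonged to more than 1 of the motifs. These matches describe letters in a window and not binding.

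HPRT1, which joins hypoxanthine or guanine to PRPP, had the highest mean of the members in the direction taken. It read 0.128, 0.123 and 0.125 on arrays 1, 2 and 3, nearly the same value each time. The mean rose to 0.126 ± 0.00266 (n = 3, limma adjusted p = 0.0165), or 1.34-fold higher with base 10 and 1.09-fold with base 2. Its SD lay at percentile 0.341 of the SDs of all genes, whose median was 0.0426. The standard error after limma pooled the spread over genes was 0.0195, far above what its own 3 values would give. The promoter of HPRT1, chrX:134459915-134460214 on the plus strand (RefSeq, GRCh38.p14), is shown as that of the highest member beside that of the lowest. It holds no CACGTG and 4 GC boxes, here in capitals.
HPRT1: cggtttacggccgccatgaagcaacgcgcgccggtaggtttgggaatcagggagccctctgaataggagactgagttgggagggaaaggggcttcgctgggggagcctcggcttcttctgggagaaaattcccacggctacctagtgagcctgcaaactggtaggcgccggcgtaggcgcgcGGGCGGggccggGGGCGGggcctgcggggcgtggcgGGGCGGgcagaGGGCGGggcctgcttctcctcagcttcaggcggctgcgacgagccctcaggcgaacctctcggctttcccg
APRT, the corresponding enzyme for adenine, read 0.0377, 0.0623 and 0.00672. All 3 values were above 0, but the mean of 0.0356 ± 0.0278 (n = 3) did not pass, with a 95% interval of -0.0221 to 0.0932 and a limma adjusted p of 0.269. Without array 2 the mean was 0.0222, and with array weights, where 61.8% of all genes were called, APRT passed (0.0550, adjusted p = 0.0252).

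The enzymes that compete for adenosine lay on opposite sides of 0. ADA, which deaminates adenosine to inosine, read 0.106, 0.145 and 0.0703 on arrays 1, 2 and 3, all above 0. The mean rose to 0.107 ± 0.0374 (n = 3, limma adjusted p = 0.0340), or 1.28-fold higher with base 10 and 1.08-fold with base 2. It lost its call when the mean of neighbouring probes was removed (0.0785, adjusted p = 0.0962). ADK, which phosphorylates adenosine to AMP, read -0.101, -0.0441 and -0.114, all below 0 and thus on the side of the de novo genes. Its mean of -0.0866 ± 0.0374 (n = 3) just missed the threshold with a limma adjusted p of 0.0545. ADK passed with the neighbour mean removed (-0.110, adjusted p = 0.0417), where 31.1% of all genes were called. It also passed with array weights (-0.0573, adjusted p = 0.0349), where 61.8% were called. It was further from a call with first probes (adjusted p = 0.0629), without array 3 (0.0657) and with probes on at least 2 arrays (0.0893). ADK was lower than ADA by -0.207, -0.189 and -0.185 on arrays 1, 2 and 3. This difference averaged -0.194 ± 0.0118 (SD, n = 3), many times its spread between arrays, and was picked out after its values were seen.

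**Figure D2:**
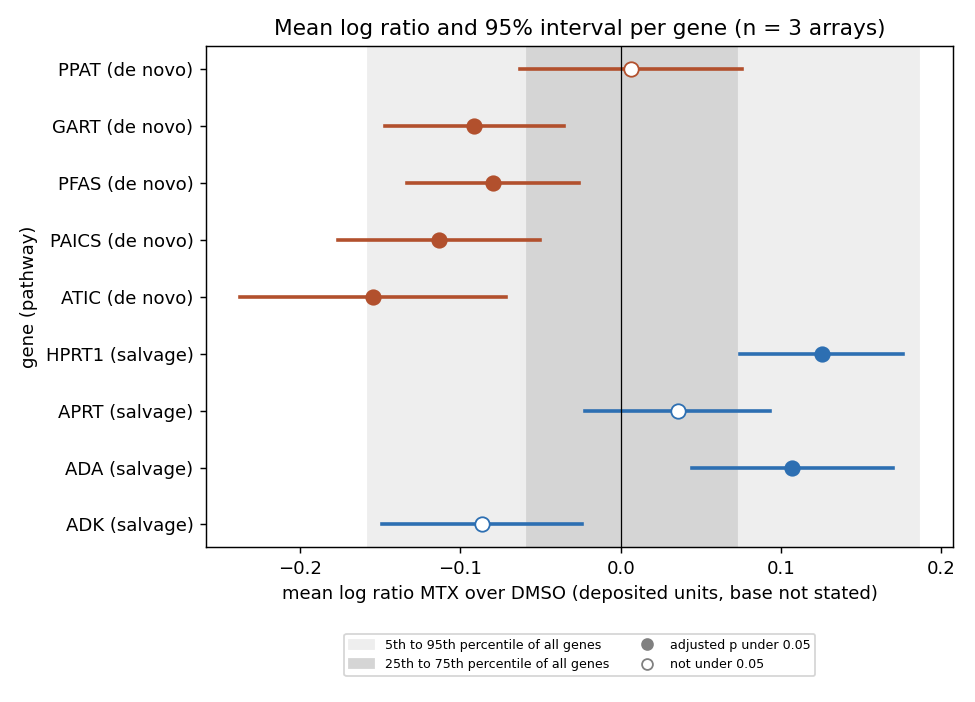
Mean log ratio of MTX over DMSO (horizontal axis, deposited units, base not stated) of the 9 genes with values on 3 arrays, with the 95% interval of the limma fit, over bands holding the middle of all 9394 gene means. All but ATIC, at -0.154, lie well inside the 5th to 95th percentile of -0.158 to 0.186, and ATIC lies close to its lower edge.

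Ordered by mean, the complete members ran from HPRT1 through ADA, APRT, PPAT, PFAS, ADK, GART and PAICS to ATIC. Only 2 of the 8 steps in this order had the same sign on all 3 arrays. ADA exceeded APRT by 0.0715 ± 0.0100 (SD of the differences, n = 3), and PPAT exceeded PFAS by 0.0859 ± 0.0648. The step from HPRT1 to ADA was 0.0185 ± 0.0387, and that from APRT to PPAT was 0.0293 ± 0.0372. Among PFAS, ADK, GART, PAICS and ATIC the steps ranged from 0.00462 to 0.0414, each smaller than its SD. A step is called beyond the spread here if it had 1 sign on all 3 arrays and a mean above its SD. Such steps split this order, itself taken from the same values, into 3 tiers (HPRT1 with ADA, APRT with PPAT, and the rest). The step from PPAT to PFAS was uneven, at 0.149 on array 1 and 0.0195 on array 3, so that split is loose. Neighbours inside a tier did not differ beyond their spread. Members further apart inside a tier were not compared and may differ.

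The de novo mean lay below the salvage mean on each array. The 5 de novo genes averaged -0.0769, -0.0705 and -0.112 on arrays 1, 2 and 3, and the 4 salvage genes averaged 0.0427, 0.0715 and 0.0220. Both means were lowest on array 3, and their difference varied less than either, at -0.120, -0.142 and -0.134. It averaged -0.132 ± 0.0113 (SD, n = 3), a ratio of 1.35 with base 10 and 1.10 with base 2. With medians in place of means the difference was -0.161 ± 0.0147. The single genes did overlap between the routes, since ADK lay among the de novo genes on every array and PPAT lay above APRT on array 1. Without ADK the difference was -0.176 ± 0.00716, and without PPAT it was -0.155 ± 0.00668, both chosen after the values were seen. With ADSL included through probes on at least 2 arrays it shrank to -0.109. No p is given for these differences, since the genes were chosen with results of these data known.

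**Figure D3:**
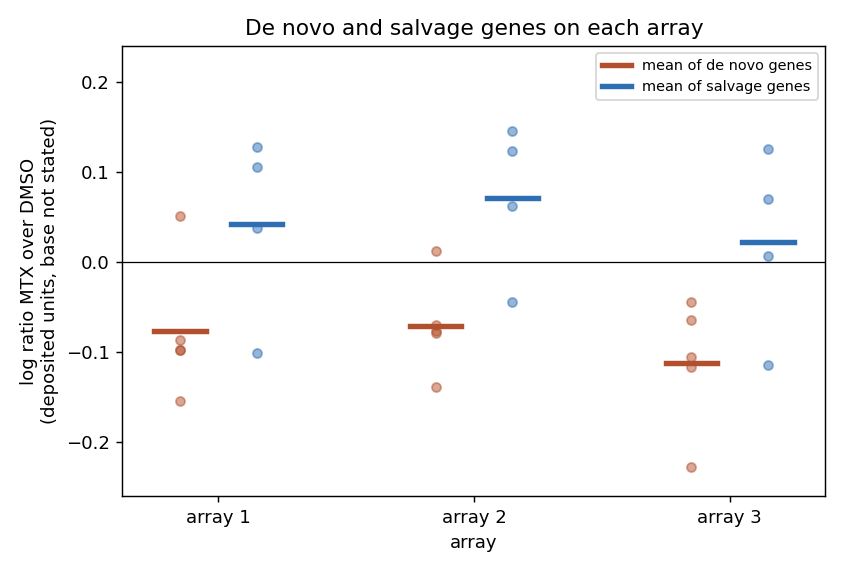
Log ratio of MTX over DMSO (vertical axis, deposited units, base not stated) of each gene on arrays 1, 2 and 3, de novo genes left and salvage genes right, with bars at the mean of each route. The de novo bar lies below 0 and the salvage bar above 0 on all 3 arrays, with the lowest salvage point, ADK, among the de novo points.

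In the lists of PRPP supply, of the steps from IMP and of folate formyl groups 0 genes passed, against 29.0% of all genes called. Lists so short can hold 0 calls at that share. Among 4 measured genes of PRPP supply 0 passed in either direction by limma, with 0 at an unadjusted p under 0.05, and the median was -0.00646. PRPS2, a PRPP synthetase, averaged 0.0355 and its associated protein PRPSAP1 averaged -0.0231. With array weights 1 gene of this list passed, against 61.8% of all genes. For the steps from IMP to AMP and GMP only GMPS (-0.0284) and IMPDH1 (0.0308), which act on the way to GMP, were measured on 3 arrays. The mean of IMPDH1 was 0.00256 without array 1. Both genes missed the threshold, and 0 of the 2 had an unadjusted p under 0.05. Of 6 genes that supply or, like ALDH1L2, remove formyl groups of folate, 0 passed by limma although all 6 means lay below 0. Their median was -0.0382. The shared sign of these 6 rested on single arrays for ALDH1L2, whose mean was 0.00698 without array 3, and for MTHFS, whose mean was 0.00219 without array 1. Genes of the list valued only on arrays 2 and 3 did not share it. There MTHFD2L read 0.256 and 0.110, ALDH1L1 0.0142 and 0.0482, and SHMT1 0.0624 and -0.0162. The serine hydroxymethyltransferase SHMT2 averaged -0.107 (limma adjusted p = 0.0572) and the folate dehydrogenase and synthetase MTHFD1 averaged -0.0705 (adjusted p = 0.0721), and these were the 2 with an unadjusted p under 0.05. Without array 3 this list had 1 call, against 45.6% of all genes, and with array weights 2, against 61.8%.

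Genes that convert or break down nucleosides and bases rose where they passed. Of 14 measured, 5 rose, 0 fell and 9 did not pass, against 16.6% higher among all genes, while the median of the list was -0.0192. PNP, the phosphorylase that releases hypoxanthine and guanine from their nucleosides, read 0.206, 0.287 and 0.177 on arrays 1, 2 and 3, above every member on each array. Its mean was 0.223 ± 0.0569 (n = 3, limma adjusted p = 0.0124), or 1.67-fold higher with base 10 and 1.17-fold with base 2. AMPD3, an AMP deaminase, averaged 0.200 ± 0.0684, and read 0.161, 0.161 and 0.279. The deoxycytidine kinase DCK, which also accepts purine deoxynucleosides, rose by 0.128 ± 0.0224, close to HPRT1. The pyrimidine nucleotidase NT5C3A rose by 0.102 ± 0.00854 and the adenosylhomocysteine hydrolase AHCY, which releases adenosine, by 0.0907 ± 0.0199. Without array 1 or array 2 none of these passed, as for every gene, and 6 genes of the list had an unadjusted p under 0.05 each time. With array weights 9 of the 14 passed, in a fit that called 61.8% of all genes, so this count is near the background.

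Transport and adenosine signalling genes included calls in both directions. Of 3 measured transporters of nucleosides or bases 2 fell and 0 rose, against 12.4% lower and 16.6% higher among all genes. SLC29A2, an equilibrative nucleoside transporter, read -0.298, -0.241 and -0.0821, uneven because of array 3, and averaged -0.207 ± 0.112 (n = 3, limma adjusted p = 0.0338). SLC43A3, a purine base transporter, averaged -0.121 ± 0.0291 (adjusted p = 0.0229). With probes on at least 2 arrays 0 transporters passed by limma and 2 had an unadjusted p under 0.05. Over all 11741 genes of that fit 1633 passed and 4336 had such a p. Of 4 genes of extracellular adenosine 1 rose and 1 fell, against the same shares. The receptor ADORA2B rose to 0.199 ± 0.0573 (adjusted p = 0.0152), with 0.140, 0.254 and 0.204 on the arrays. ENTPD2, an ectonucleotidase, fell to -0.120 ± 0.0239 (adjusted p = 0.0218), and the other 2 did not pass. Among 8 pyrimidine genes 0 rose and 1 fell, a count near the background of 12.4% lower. It was the cytidine deaminase CDA at -0.111 ± 0.0514 (limma adjusted p = 0.0414), while the uridine-cytidine kinase UCK2 averaged -0.0716 (adjusted p = 0.101). With array weights 5 pyrimidine genes passed against 61.8% of all genes, and without array 3 there were 3 against 45.6%. With probes on at least 2 arrays limma called 0 of them, with 1 at an unadjusted p under 0.05. Over all genes the counts were again 1633 and 4336.

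**Figure D4:**
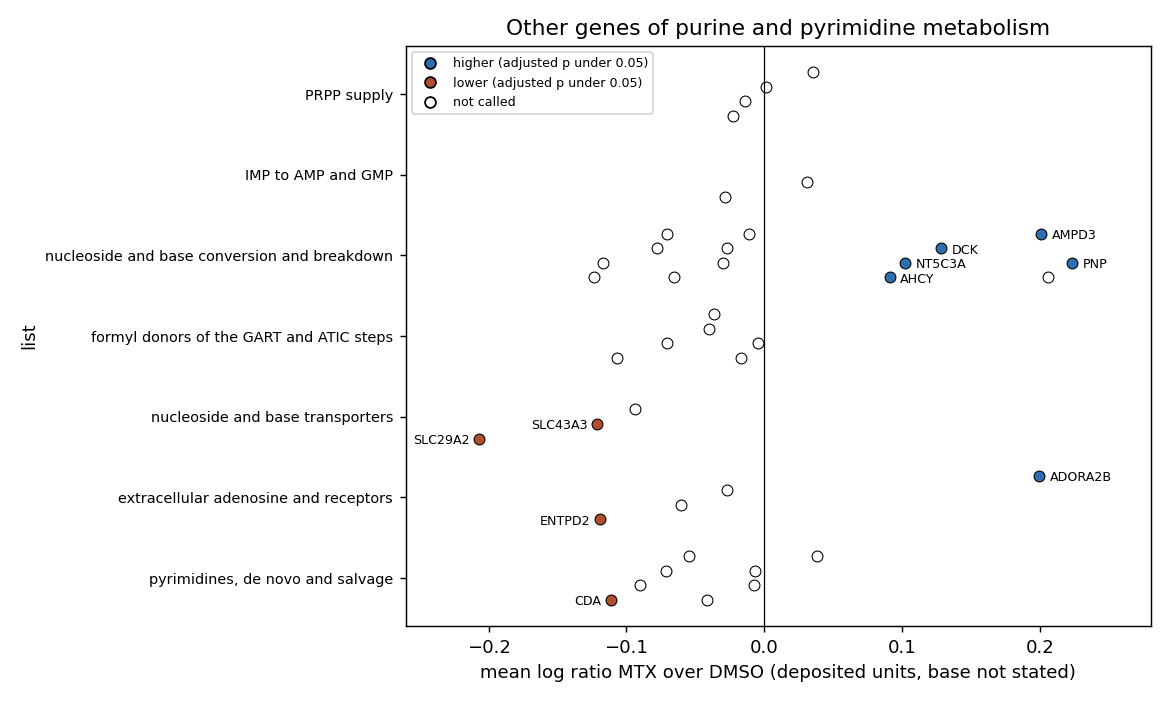
Mean log ratio of MTX over DMSO (horizontal axis, deposited units, base not stated) of the genes measured on 3 arrays in each of 7 neighbouring gene lists, with calls filled and named. Calls to the right are 5 genes of nucleoside and base conversion and ADORA2B, and calls to the left are SLC29A2, SLC43A3, ENTPD2 and CDA.

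The genes nearest to the mean profile of each route were found by Euclidean distance over the 3 arrays, leaving the members out. GLRX3 (distance 0.00568), SLIT1 (0.00647) and MARCHF3 (0.0117) lay nearest to the de novo mean. HINFP (0.00723), PAPLN (0.0104) and YIPF5 (0.0124) lay nearest to the salvage mean. With only 3 values per gene such likeness is a description of 3 ratios.

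Calls of the members changed with the setting, while most settings could not change their signs. GART, PFAS, PAICS, ATIC, HPRT1, APRT, ADA and ADK kept their sign under each alternative tried, and PPAT changed sign without array 1. Leaving out each array in turn gave means of -0.183 to -0.118 for ATIC, -0.130 to -0.0924 for PAICS and 0.124 to 0.127 for HPRT1. HPRT1 was the member whose call was lost only when array 1 or array 2 was left out.

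**Figure D5:**
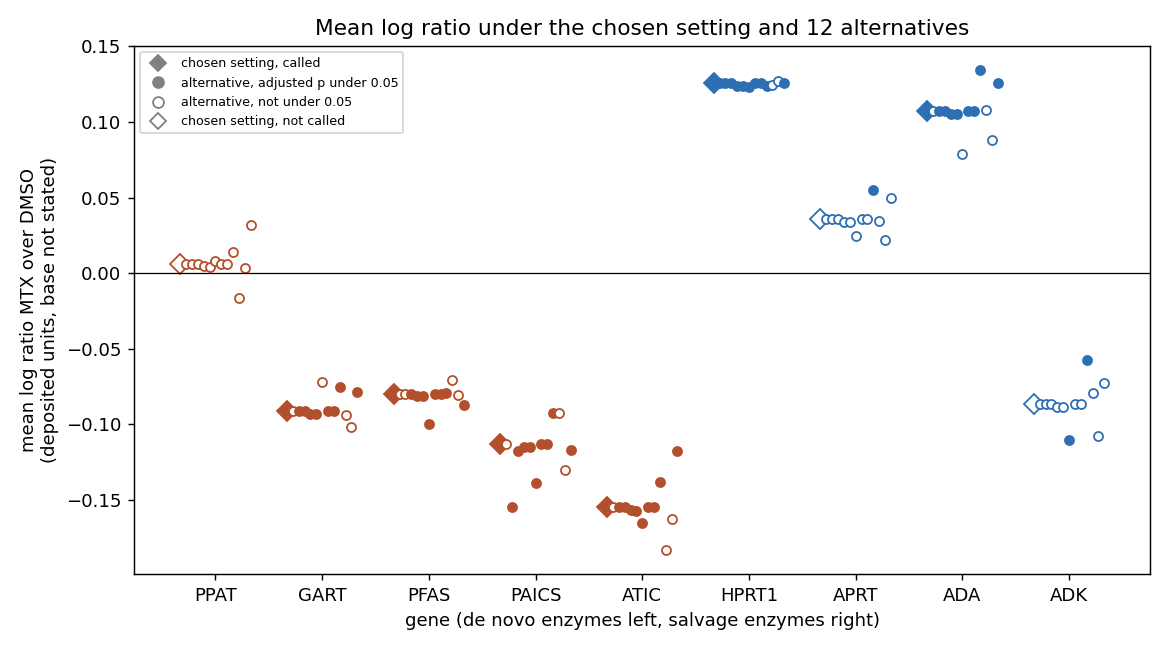
Mean log ratio of MTX over DMSO (vertical axis, deposited units, base not stated) of each gene under the chosen setting (diamond, leftmost) and 12 alternatives (circles), filled where the adjusted p was under 0.05. Signs hold except for 1 circle of PPAT at -0.0163, while open circles show where GART, PFAS, PAICS, ATIC, HPRT1 and ADA lose their calls.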

How the data were processed

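Total RNA was measured on 3 two-colour arrays. Per the series' design text the authors labelled with a FairPlay kit, scanned with a GenePix scanner, subtracted the local median background and applied LOWESS normalisation. The authors' deposited values are the resulting log ratios, named log10 here as a working base because none is stated, and their direction follows the labelled dyes. Column medians were 0.00137, 0.00222 and 0.00194, so the arrays are centred near 0. Scanner intensities were not used here, so background correction, dim probes and slide could not be varied.

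Symbols came from the platform annotation, with 22472 probes having 1 symbol, 80 several and 9063 none. Of these, 22444 were matched by Entrez identifier to the RefSeq table, and 0 symbols changed. The 13027 complete probes with 1 symbol were averaged per gene and array and each mean was tested two-sided against 0 in limma 3.58.1 (lmFit, eBayes; R 4.3.3). P-values were adjusted over 9394 genes by Benjamini and Hochberg, with a threshold of 0.05. Errors are SDs over 3 arrays. The number of arrays limits precision. The neighbour mean was taken over a window of 101 probes in probe order, leaving out the probe itself. The fit was tested on simulated data whose changes were larger than the member means and rarer than the calls here. That simulation therefore does not test calls of the size of the members. Named genes are all members, the called genes of 7 lists or, where fewer than 2 passed, those of smallest p, and the 3 nearest genes of each route. Members and lists were chosen with earlier results of these data known. Figures were drawn with matplotlib 3.10.9.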

Additional observations from a re-analysis of the deposited data

How the results depend on the processing

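Median centring, scaling to the same spread, the median or first probe of a gene, and robust or trended spread models kept all counts of called genes within 1.5 times, and the one call of a member that they ended was that of PFAS with first probes (adjusted p = 0.0549). With probes on at least 2 arrays 1633 genes (13.9%) were called in place of 2726 (29.0%). They held 0 de novo, 1 salvage, 0 transporter and 0 pyrimidine genes, and the difference between the routes was -0.109. There GART, PFAS, PAICS, ATIC and ADA had adjusted p-values of 0.0677, 0.0799, 0.0564, 0.0520 and 0.0612. Single probes gave 5350 calls, or 30.5% of 17569 probes. With the neighbour mean removed 1 of 3 transporters passed, against 31.1% of all genes. Array weights of 0.766, 3.98 and 0.328 gave 5801 calls, or 61.8% of all genes. Among them were 4 of 4 salvage genes and 1 of 4 of PRPP supply. They also held 9 of 14 genes of nucleoside conversion, 2 of 6 of folate formyl groups and 5 of 8 of pyrimidines. Leaving out each array gave 0 to 4287 calls, or 0 to 45.6% of all genes. Among them were 0 to 4 de novo, 0 to 2 salvage, 0 to 7 nucleoside conversion and 0 to 1 folate formyl group genes. They also held 0 to 2 transporter, 0 to 2 adenosine and 0 to 3 pyrimidine genes. The difference between the routes was -0.138 to -0.127, and the mean of PPAT -0.0163 to 0.0316. Without ADK or without PPAT, settings added after seeing the data, the difference was -0.176 or -0.155. A fit on 2 arrays has fewer samples, and the cause of the other changes was not tested. The test against 0 is itself paired, because each ratio already pairs both RNAs of an array. The 3 arrays form a single group, so no further pairing was possible.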

Other observations

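Some genes of the neighbouring lists had values on 1 or 2 arrays and entered no test over 3 arrays. ADSS1, an adenylosuccinate synthetase on the way from IMP to AMP, read 0.125 and 0.301 on arrays 2 and 3. IMPDH2, a dehydrogenase on the way to GMP, read -0.0142 on array 2. XDH, which oxidises hypoxanthine and xanthine, read -0.0635 and -0.197 on arrays 2 and 3. MTHFD2L, a mitochondrial folate enzyme, read 0.256 and 0.110 on the same arrays, and SHMT1, the cytosolic hydroxymethyltransferase, read 0.0624 and -0.0162. Of the pyrimidine enzymes, DHODH read -0.0883 and -0.0348 on arrays 2 and 3. The probes of SLC29A3, a nucleoside transporter of internal membranes, read 0.0425 and 0.232 on array 3.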
